A study of Sus scrofa with 10 samples.

Results

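The nuclear-encoded genes of oxidative phosphorylation were followed in the right ventricle of pigs with chronic thromboembolic pulmonary hypertension (CTEPH) and of Sham pigs. A gene was taken as a member when its symbol belonged to the NDUF genes of complex I, SDHA to SDHD of complex II, the UQCR genes of complex III, the lettered COX subunits 4 to 8 of complex IV or the ATP5 genes of complex V. This rule uses names and no measured value, and it found 77 of the 12378 genes of the table that have a symbol, while 3260 further genes have none. They comprise 32 subunits of complex I, 8 complex I assembly factors (NDUFAF1 to NDUFAF8), 4 subunits of complex II, 7 of complex III, 13 genes of complex IV and 13 of complex V. NDUFA4 and NDUFA4L2 were counted with complex IV, where NDUFA4 is now placed. Several genes of the chain had no row under their symbol and are not analysed here, among them ATP5F1B, COX6A1, COX6B1, COX8B, NDUFS7 and UQCRH.

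Bulk RNA was sequenced from 1 right ventricular biopsy library per pig, with 5 CTEPH pigs (libraries s1, s3, s4, s5 and s9) and 5 Sham pigs (libraries s2, s6, s7, s8 and s10). In CTEPH, organized clot obstructs the pulmonary arteries and the right ventricle pumps against a raised pressure. The labels give neither the way the disease was produced, nor the breed, sex, age or time of biopsy, and both groups are described by no other treatment or allele. The deposited values are log2 expression values brought to nearly the same distribution in every library, so a difference of 1 is a 2-fold difference, and the values of different genes are not corrected for gene length. A gene is called higher or lower when its adjusted p in limma is under 0.05 (Benjamini-Hochberg over all genes of the table), and each fold change is CTEPH minus Sham with its standard error (SE).

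Oxidative phosphorylation is the main source of ATP in the working heart. Complexes I and II pass electrons from NADH and succinate to ubiquinone, complex III passes them on to cytochrome c, and complex IV hands them to oxygen. Complexes I, III and IV pump protons across the inner mitochondrial membrane, and complex V uses the return of the protons to make ATP. Most subunits are encoded in the nucleus, a small core is encoded in mitochondrial DNA, and assembly factors help to build the complexes without being part of them.

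The biopsies held cardiac muscle RNA: 14 of 18 listed cardiomyocyte markers were measured, with mean log2 values between 14.63 and 19.32. The mean deviation of these markers from their 10-library means ran from -0.19 to 0.21 in the CTEPH libraries and from -0.26 to 0.07 in the Sham libraries, so the groups overlapped. Relative sequencing depth, estimated from low values that could be read back as counts, spanned 0.724 (s9) to 1.573 (s4). In bulk tissue, fewer cells of a type and less RNA per cell cannot be told apart.

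As a set, the nuclear genes of the chain showed little difference between CTEPH and Sham ventricles. Of the 77 members, 40 had a positive and 37 a negative fold change. Their median log2 fold change was 0.02, within a range of -0.57 to 0.70, against a median of -0.03 over all genes. The sign of that small median turned without CTEPH libraries s9 (-0.098) or s1 (-0.01), without Sham libraries s2 (-0.061) or s8 (-0.025), with library weights (-0.063) and with libraries centred on cardiomyocyte genes (-0.015).

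NDUFAF4 was the member that rose in CTEPH, and no member fell. This is 1 of 77 members, or 1.3%, against 4.62% of all genes, of which 2.83% were called higher and 1.79% lower. At an unadjusted p under 0.05 there were 4 members (5.19%), against 20.3% of all genes. NDUFAF4 and COX7A2 were the higher pair, against 9.84% of all genes, and NDUFAF2 and COX6A2 the lower pair, against 10.5% of all genes. Every CTEPH value lay above every Sham value for 2 members, again NDUFAF4 and COX7A2, against 3.7% of all genes. The reverse was found for 0 members, against 2.87% of all genes.

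Most differences were bounded closely. The 95% confidence interval of the fold change lay within 1.5-fold either way, or 0.585 on the log2 scale, for 59 members (76.6%). The same held for 31.5% of all genes and for 51.4% of the 2083 genes whose mean value was at least that of the lowest complex I subunit. Of those 2083 genes, 4.99% were called and 22.6% had an unadjusted p under 0.05. With libraries centred on cardiomyocyte genes, 31 members had such an interval. The plot of member fold changes shows the intervals by complex.

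**Figure D1:**
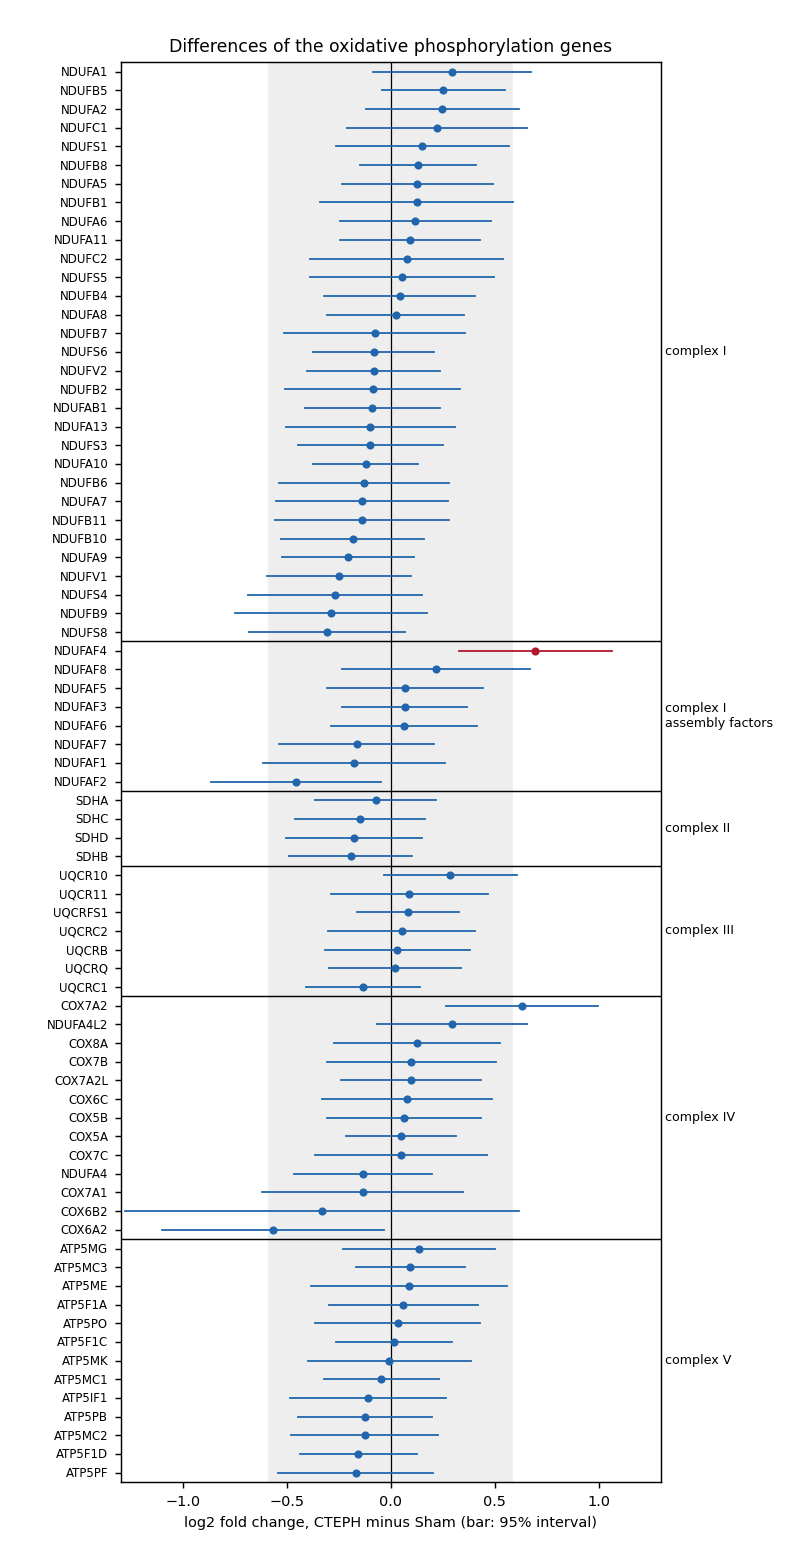
Log2 fold change (CTEPH minus Sham, horizontal axis) of 76 of the 77 members, ordered within the complex, with the 95% confidence interval of the limma fit as a bar and a grey band at 1.5-fold either way. NDUFAF4 (red) is the member called at an adjusted p under 0.05, and 58 of the 76 intervals drawn lie within the band.

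Complex I is the entry point for electrons from NADH, and none of its 32 measured subunits was called or reached an unadjusted p of 0.05. Fold changes were positive for 14 and negative for 18 of them (median -0.08), with extremes of -0.31 (NDUFS8) and 0.30 (NDUFA1). Leaving out 1 library moved the median to between -0.153 (without CTEPH library s9) and -0.007 (without CTEPH library s3). Among the 6 measured core subunits, which carry the electrons, 5 had a negative fold change, and their median was -0.16. The 26 accessory subunits, which surround that core, were divided equally, with 13 positive and 13 negative fold changes and a median of -0.03.

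The core subunits differed among themselves in which library was highest. NDUFV1, the flavin-binding subunit that takes electrons from NADH, had 14.65, 13.91, 13.83, 14.06 and 14.39 in CTEPH libraries s1, s3, s4, s5 and s9, against 14.27, 14.51, 14.48, 14.45 and 14.38 in Sham libraries s2, s6, s7, s8 and s10. The CTEPH libraries spread on both sides of the narrow Sham range, and the difference was -0.25 ± 0.16 (SE; limma, adjusted p = 0.422). NDUFS1, the largest iron-sulfur subunit, had 14.10, 14.83, 14.51, 14.96 and 14.43 in the same CTEPH libraries, against 14.84, 14.10, 14.52, 14.10 and 14.52 in the Sham libraries. Both groups covered nearly the same range, and the difference was 0.15 ± 0.19 (adjusted p = 0.711). NDUFS8, an iron-sulfur subunit of the quinone-binding arm, had 13.98, 13.32, 13.65, 13.40 and 13.99 in CTEPH, against 13.59, 14.29, 14.12, 13.97 and 13.91 in Sham. CTEPH libraries s3 and s5 were the lowest, and the difference was -0.31 ± 0.17 (adjusted p = 0.35).

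The accessory subunits with the highest and lowest fold changes overlapped between the groups as well. NDUFA1 averaged 13.38 ± 0.289 in CTEPH and 13.09 ± 0.305 in Sham (SD, n = 5 pigs each), a difference of 0.30 ± 0.18 (limma, adjusted p = 0.38). NDUFB5 averaged 13.69 ± 0.236 in CTEPH and 13.43 ± 0.135 in Sham, a difference of 0.25 ± 0.14 (adjusted p = 0.329). At the lower end, NDUFB9 averaged 14.28 ± 0.367 in CTEPH and 14.57 ± 0.396 in Sham, a difference of -0.29 ± 0.21 (adjusted p = 0.495). NDUFA9 had the tightest Sham values of the accessory subunits, 14.08 to 14.20, while the CTEPH libraries ran from 13.58 to 14.23 (it was picked out after its values were seen).

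The assembly factors of complex I held the highest fold change of all members and the lowest outside complex IV. NDUFAF4 (chromosome 1, 64038277 to 64044824, RefSeq, Sscrofa11.1) works with NDUFAF3 in the early assembly of the quinone-binding part of the complex. Its log2 values were 9.53, 9.28, 8.79, 9.46 and 9.41 in CTEPH libraries s1, s3, s4, s5 and s9, against 8.57, 8.54, 8.73, 8.40 and 8.73 in Sham libraries s2, s6, s7, s8 and s10. All CTEPH libraries lay above all Sham libraries, with s4 close to the Sham range and the other CTEPH libraries well above it. The groups averaged 9.29 ± 0.298 in CTEPH and 8.60 ± 0.139 in Sham. The log2 difference was 0.70 ± 0.17, a 1.62-fold rise with a 95% confidence interval of 0.33 to 1.06 on the log2 scale (limma, adjusted p = 0.0359).

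NDUFAF4 values were low enough to be read back as counts, known up to a common factor, in 9 of the 10 libraries. Scaled by relative depth, CTEPH libraries s3, s4, s5 and s9 held 306, 222, 363 and 340 counts, against 192, 177, 217, 164 and 215 counts in the Sham libraries. The order of the groups was thus the same before quantile normalization for these libraries. The call sat near the threshold: NDUFAF4 was called in 1 of the 10 fits that left out a library (without s4, adjusted p = 0.0152). In the other 9 the adjusted p was between 0.0527 and 0.0858, with fold changes of 0.64 to 0.73, and centring on cardiomyocyte genes gave 0.66 (adjusted p = 0.146). NDUFAF4 and COX7A2 had an unadjusted p under 0.05 in all 18 alternative fits.

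NDUFAF2 (chromosome 16, 39770398 to 39950786), which acts late in complex I assembly, had 7.92, 7.75, 7.59, 7.78 and 8.26 in CTEPH, against 8.18, 8.48, 8.61, 7.997 and 8.33 in Sham. CTEPH library s9 lay among the Sham values, and the other CTEPH libraries lay below all of them. The difference was -0.46 ± 0.19 (limma, adjusted p = 0.193). Per relative depth, the CTEPH libraries held 119, 110, 103, 112 and 152 counts, against 144, 170, 198, 125 and 160 in the Sham libraries. The other 6 factors had fold changes between -0.18 (NDUFAF1) and 0.22 (NDUFAF8). NDUFAF3, the partner of NDUFAF4, averaged 11.03 ± 0.186 in CTEPH and 10.97 ± 0.195 in Sham, a difference of 0.07 ± 0.14 (adjusted p = 0.837; named after its values were seen).

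Complex II oxidizes succinate and is the member of the chain that is encoded wholly in the nucleus. All 4 of its subunits had a fold change under 0 (median -0.16, or -0.22 without CTEPH library s9 and -0.10 without s1), all 4 intervals lay within 1.5-fold, and none was called. SDHA, the flavoprotein that oxidizes succinate, had 15.19, 15.31, 15.21, 15.21 and 14.89 in CTEPH, against 15.50, 15.20, 15.25, 15.001 and 15.23 in Sham, a difference of -0.07 ± 0.14 (limma, adjusted p = 0.809). SDHB, the iron-sulfur subunit, had 14.46, 14.03, 14.06, 14.07 and 14.45 in CTEPH, against 14.39, 14.42, 14.58, 14.18 and 14.49 in Sham. CTEPH libraries s3, s4 and s5 lay below every Sham library, s1 and s9 lay among them, and the difference was -0.19 ± 0.14 (adjusted p = 0.471). The membrane anchors SDHC and SDHD had differences of -0.15 ± 0.14 (adjusted p = 0.619) and -0.18 ± 0.15 (adjusted p = 0.558).

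Complex III moves electrons from ubiquinol to cytochrome c. Of its 7 measured genes, 6 had positive fold changes, with a median of 0.05 that ran from 0.004 without CTEPH library s9 to 0.104 without s3, and none was called. The Rieske iron-sulfur protein UQCRFS1, its catalytic subunit in this list, had 15.33, 15.20, 15.22, 15.31 and 15.35 in CTEPH, against 15.21, 15.06, 15.24, 15.28 and 15.21 in Sham. The 10 libraries lay close together, and the difference was 0.08 ± 0.11 with a 95% interval of -0.16 to 0.33 (limma, adjusted p = 0.735). UQCR10, a small accessory subunit, had the highest fold change, averaging 13.93 ± 0.235 in CTEPH and 13.64 ± 0.212 in Sham (0.29 ± 0.15, adjusted p = 0.304). UQCRC1, a core protein, had the lowest, averaging 15.54 ± 0.148 in CTEPH and 15.67 ± 0.0987 in Sham (-0.13 ± 0.13, adjusted p = 0.603). The small subunits UQCR11 and UQCRQ had differences of 0.09 ± 0.18 and 0.02 ± 0.15.

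Complex IV, which reduces oxygen, held the widest spread among the complexes' subunits, from -0.57 (COX6A2) to 0.63 (COX7A2), and both ends are isoform genes. In mammals COX6A2 and COX7A1 are the heart and muscle isoforms of their subunits, and COX7A2 is the ubiquitous isoform of subunit 7A. The 13 genes had 9 positive and 4 negative fold changes and a median of 0.06, which was -0.03 without either CTEPH library s9 or Sham library s2. None was called.

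COX7A2 (chromosome 1, 90696746 to 90703407) had 13.11, 13.29, 13.47, 13.50 and 13.93 in CTEPH libraries s1, s3, s4, s5 and s9, against 12.40, 13.05, 12.89, 12.87 and 12.91 in Sham libraries s2, s6, s7, s8 and s10. All CTEPH libraries lay above all Sham libraries, by a small margin between s1 and s6, and Sham library s2 lay far below the rest of its group. COX7A2 averaged 13.46 ± 0.308 in CTEPH and 12.83 ± 0.249 in Sham. The difference was 0.63 ± 0.17, or 1.55-fold, with an interval of 0.27 to 0.999 and an adjusted p of 0.0521 in limma, just past the threshold. It fell under the threshold with library weights (0.59, adjusted p = 0.0301), with libraries centred on the 10% of genes with the highest values (0.67, adjusted p = 0.0374) and without CTEPH library s1 (0.72, adjusted p = 0.0267), and not in the other 15 alternatives.

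The muscle isoforms split the CTEPH libraries. COX6A2 had 14.84, 13.88, 13.98, 13.55 and 14.79 in CTEPH, against 14.47, 15.25, 14.78, 14.69 and 14.70 in Sham. CTEPH libraries s3, s4 and s5 lay below every Sham library, whereas s1 and s9 lay inside the Sham range. COX6A2 averaged 14.21 ± 0.577 in CTEPH and 14.78 ± 0.290 in Sham, a difference of -0.57 ± 0.25 with an interval of -1.10 to -0.03 (limma, adjusted p = 0.215). COX7A1 (chromosome 6, 45519225 to 45520721) had 15.52, 14.51, 14.85, 14.51 and 15.48 in CTEPH, against 14.73, 15.43, 15.20, 15.21 and 14.98 in Sham. Libraries s1 and s9 were again the high CTEPH libraries, while s4 lay inside the Sham range, and the difference was -0.14 ± 0.22 (adjusted p = 0.782). The split was not particular to these isoforms: s1 and s9 were also the highest CTEPH libraries in the mean deviation of all members (0.09 and 0.35).

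**Figure D2:**
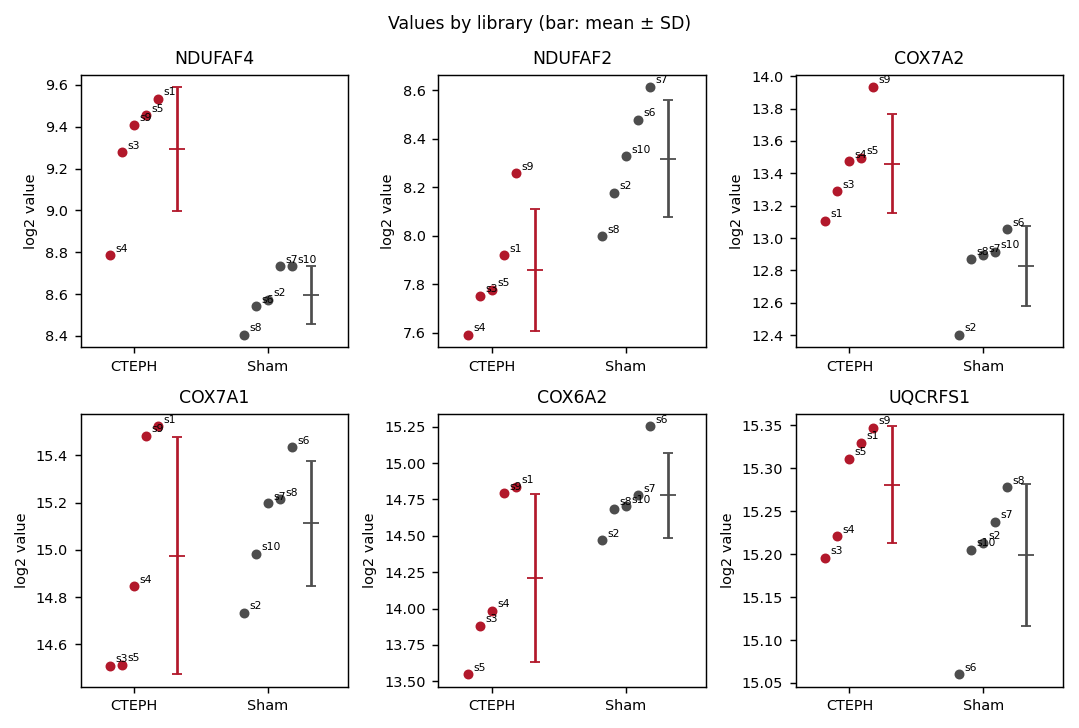
Log2 value (vertical axis, a separate scale for each gene) in each library for 6 members, with CTEPH libraries in red, Sham libraries in grey and bars for the mean ± SD of 5 libraries. NDUFAF4 and COX7A2 do not overlap between the groups, COX6A2 divides the CTEPH libraries into s3, s4 and s5 below the Sham values and s1 and s9 among them, and UQCRFS1 stays within 15.06 to 15.35.

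The difference between the 2 isoforms of subunit 7A within a library shows how their balance varied. COX7A1 minus COX7A2 was 2.42, 1.22, 1.37, 1.02 and 1.55 in CTEPH libraries s1, s3, s4, s5 and s9, against 2.33, 2.38, 2.30, 2.34 and 2.07 in Sham libraries s2, s6, s7, s8 and s10. The CTEPH libraries averaged 1.515 ± 0.540 and the Sham libraries, which lay close together, 2.285 ± 0.124 (SD, n = 5 pigs each). CTEPH libraries s3, s4, s5 and s9 lay below every Sham library, and s1 lay above all of them. The mean difference was -0.77 and ranged from -0.995 to -0.645 when each library was left out in turn. Without a gene length correction, these values show which group is higher and not which isoform is more abundant.

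NDUFA4 is a subunit of complex IV, and NDUFA4L2 is its hypoxia-induced relative. NDUFA4L2 had 9.33, 9.31, 9.54, 9.07 and 9.41 in CTEPH, against 8.59, 9.08, 9.21, 9.30 and 9.01 in Sham, a difference of 0.29 ± 0.17 (limma, adjusted p = 0.351). NDUFA4 averaged 16.54 ± 0.107 in CTEPH and 16.68 ± 0.252 in Sham, a difference of -0.13 ± 0.15 (adjusted p = 0.679). NDUFA4L2 minus NDUFA4 averaged -7.21 ± 0.175 in CTEPH and -7.64 ± 0.170 in Sham, a difference of 0.43. The groups did not overlap, but CTEPH library s5 (-7.429) and Sham library s10 (-7.431) nearly met. The pair of subunit 4 isoforms lies outside the symbol rule: COX4I2 minus COX4I1 averaged -6.62 ± 0.554 in CTEPH and -6.57 ± 0.134 in Sham.

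**Figure D3:**
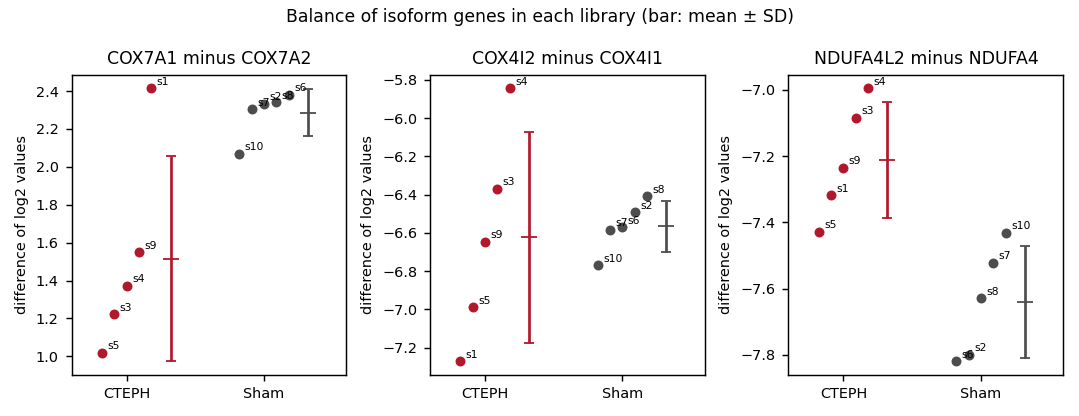
Difference of log2 values between isoform genes in each library (vertical axis, a separate scale for each pair), with CTEPH in red, Sham in grey and bars for the mean ± SD of 5 libraries. COX7A1 minus COX7A2 is lower in 4 of the 5 CTEPH libraries than in any Sham library, with s1 at 2.42, and NDUFA4L2 minus NDUFA4 does not overlap between the groups.

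None of the remaining complex IV genes reached an unadjusted p of 0.05. COX5A averaged 14.74 ± 0.0717 in CTEPH and 14.69 ± 0.170 in Sham, a difference of 0.05 ± 0.12 (limma, adjusted p = 0.864). COX5B had a difference of 0.06 ± 0.17 (adjusted p = 0.875) and COX8A of 0.12 ± 0.19 (adjusted p = 0.756). COX7A2L, which joins complexes III and IV in supercomplexes, averaged 11.81 ± 0.247 in CTEPH and 11.71 ± 0.241 in Sham (0.10 ± 0.16, adjusted p = 0.776). COX6B2, the testis isoform of subunit 6B, was the member with the lowest values, 18 to 111 counts per library. Its difference was -0.33 ± 0.44 (adjusted p = 0.724), and its interval of -1.28 to 0.62 was the widest of the members.

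Complex V makes ATP, and its 13 members gave the most even picture. All 13 intervals lay within 1.5-fold, 6 fold changes were positive and 7 negative, and the median was -0.01, which became 0.03 with libraries centred on the 10% of genes with the highest values and ranged from -0.12 to 0.06 when each library was left out. The extremes were ATP5MG, a membrane subunit (0.13 ± 0.17), and the peripheral stalk subunit ATP5PF (-0.17 ± 0.17). ATP5F1A, the alpha subunit of the catalytic head, had 16.90, 17.22, 17.33, 17.58 and 17.33 in CTEPH, against 16.96, 17.17, 17.33, 17.22 and 17.38 in Sham. The groups covered each other, and the difference was 0.06 ± 0.17 (limma, adjusted p = 0.878). ATP5F1D, the delta subunit of the head, averaged 14.19 ± 0.130 in CTEPH and 14.35 ± 0.195 in Sham (-0.16 ± 0.13, adjusted p = 0.542).

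The genes ATP5MC1, ATP5MC2 and ATP5MC3 encode the same mature protein of the rotating c ring. Their differences were -0.05 ± 0.13 (limma, adjusted p = 0.882), -0.13 ± 0.16 (adjusted p = 0.717) and 0.09 ± 0.12 (adjusted p = 0.717). ATP5IF1, the inhibitor that binds complex V when the membrane loses its proton gradient, had 13.93, 13.60, 13.93, 13.55 and 14.37 in CTEPH, against 13.65, 14.23, 14.08, 14.14 and 13.82 in Sham, a difference of -0.11 ± 0.17 (adjusted p = 0.773).

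In the level of the members as a whole, pigs of the same group differed more than the group means did. This level, taken for each library as their mean deviation from the 10-library means, was 0.09, -0.20, -0.13, -0.14 and 0.35 in CTEPH libraries s1, s3, s4, s5 and s9, against -0.16, 0.13, 0.13, -0.03 and -0.05 in Sham libraries s2, s6, s7, s8 and s10. The group means of this level were -0.01 ± 0.228 in CTEPH and 0.01 ± 0.123 in Sham. CTEPH library s9 had the highest value of all libraries in 48 of 77 members (62.3%), against 13.3% of all genes. The lowest value belonged to Sham library s2 in 21 members and to CTEPH library s3 in 20.

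**Figure D4:**
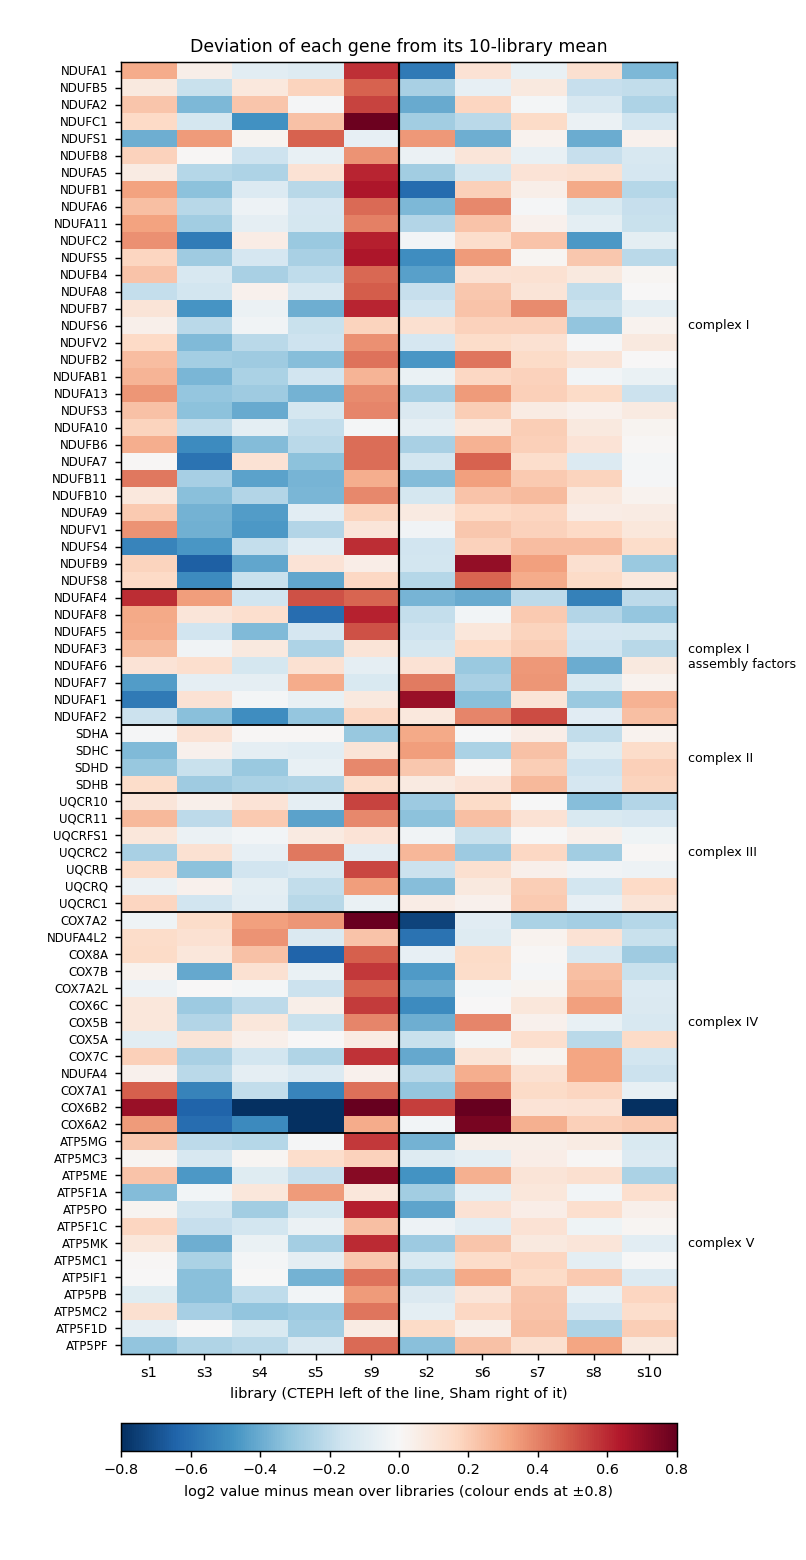
Deviation of 76 of the 77 members (rows, by complex) from the gene's mean over 10 libraries (columns, with 5 CTEPH libraries left of the line and 5 Sham libraries right of it), on a log2 scale whose colours end at 0.8 either way. CTEPH library s9 is red across most rows, and CTEPH library s3 and Sham library s2 are blue across many.

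The high and low libraries were not the same for every member. CTEPH library s5 was the highest for NDUFS1, UQCRC2 and ATP5F1A, and Sham library s2 for NDUFAF1, NDUFAF7, SDHA and SDHC. By complex, library s9 had a level of 0.38 for complex I, 0.08 for complex II, 0.25 for complex III, 0.45 for complex IV and 0.38 for complex V. Library s2 was at -0.19, 0.23, -0.12, -0.29 and -0.21 for the same complexes, so it was the highest library for complex II and the lowest of all for complex IV. The SD among CTEPH pigs exceeded that among Sham pigs in 60 of 77 members (77.9%), against 69.6% of all genes, with median SDs of 0.308 in CTEPH and 0.212 in Sham.

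**Figure D5:**
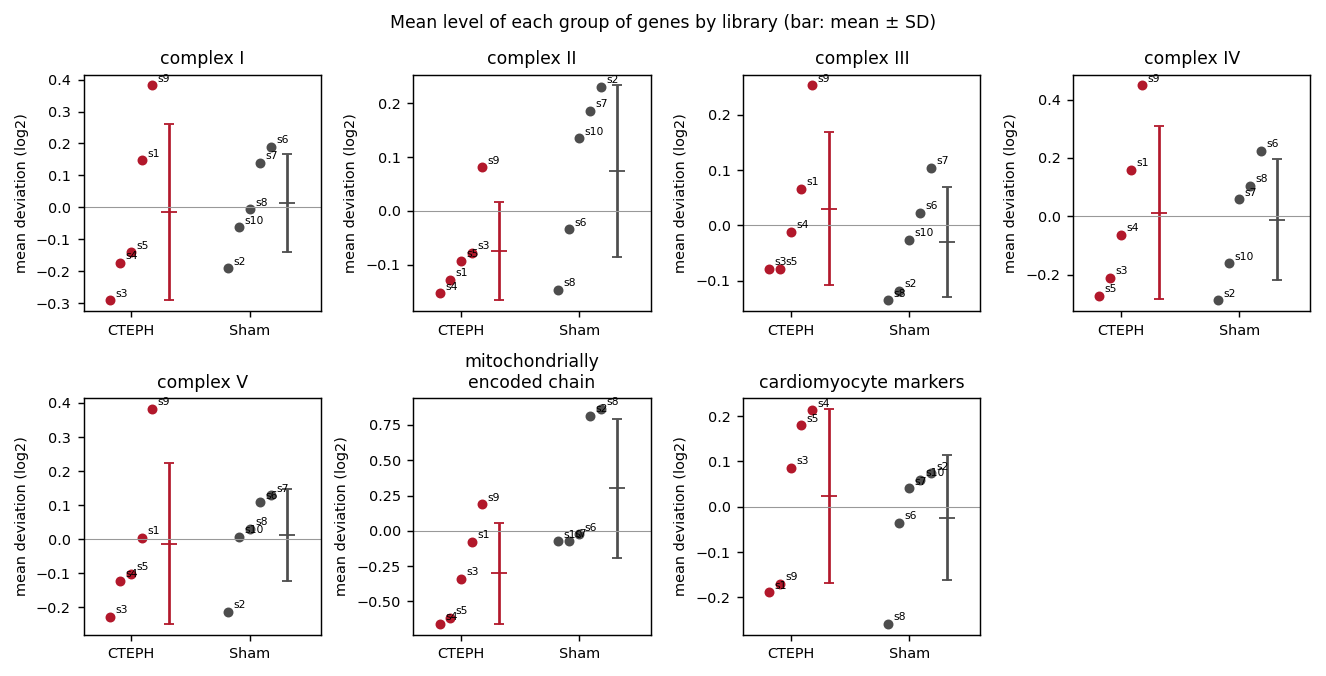
Mean deviation of the genes of each group from their 10-library means (vertical axis, log2, a separate scale for each panel) by library, with CTEPH in red, Sham in grey and bars for the mean ± SD of 5 libraries. Library s9 is the highest CTEPH library in the panels of complexes I to V, and Sham libraries s2 and s8 stand apart in the mitochondrially encoded genes.

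Library s9 also had the lowest relative depth (0.724), and its cardiomyocyte marker level was -0.17. CTEPH libraries s3, s4 and s5, with member levels below 0, had cardiomyocyte marker levels of 0.09, 0.21 and 0.18, and s1 had -0.19. Whether depth or cell makeup has a part in the member level was not tested. Without s9 the members' median was -0.098, and 0 members were called, against 6.15% of all genes in the same fit. In that fit 8 members (10.4%) had an unadjusted p under 0.05, against 21.4% of all genes. NDUFB10, NDUFS4, NDUFS8, NDUFAF2, SDHD and COX6A2 were then lower and NDUFAF4 and COX7A2 higher.

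Of the chain genes encoded in mitochondrial DNA, 12 of 13 were measured, and none was called. All 12 had a fold change under 0 (median -0.41), and 3 (25%) had an unadjusted p under 0.05, against 20.3% of all genes. Among the highest genes, quantile normalization leaves values that are steps of rank. COX3 was at 21.07 and ATP6 at 20.69 in every Sham library (SD 0), so fold changes among the highest genes are changes of rank. The level of the 12 genes was -0.08, -0.34, -0.66, -0.62 and 0.19 in CTEPH, against 0.81, -0.02, -0.07, 0.86 and -0.08 in Sham, so Sham libraries s2 and s8 lay far above the other 8. In those 2 libraries ATP8 was at 16.44 and 15.99, against 9.94 to 11.35 in the other 8 (picked out after its values were seen). ATP8 is 1 of the 12 genes averaged, so it raises the level of s2 and s8, and the level without it was not computed. ND1 was also highest in those libraries (19.05 in both). Library s2 was thus low in the mean level of the nuclear genes of complex IV and high in that of the mitochondrial genes.

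Other genes of the pathway were followed in lists chosen by function. None of 7 further chain genes was called (median -0.03), among them COX4I1 (-0.29 ± 0.22, limma, adjusted p = 0.499), COX4I2 (-0.35 ± 0.23, adjusted p = 0.426) and CYC1 of complex III (-0.03 ± 0.13, adjusted p = 0.93). None of 10 further complex I assembly factors was called (median -0.10). Of 33 assembly factors of complexes II to V, 1 was called (3.03%, against 4.62% of all genes), the lower COX19. Their median was 0.06. COX19, needed for complex IV assembly, averaged 8.68 ± 0.244 in CTEPH and 9.42 ± 0.269 in Sham (-0.75 ± 0.18, adjusted p = 0.0316), and was called in 4 of the 10 fits without a library (highest adjusted p = 0.0836).

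Ubiquinone carries electrons from complexes I and II to complex III, and its genes held 2 calls that no alternative removed. Of 13 genes of ubiquinone synthesis and binding, 1 rose and 1 fell (15.4% called, against 4.62% of all genes). The median was 0.03. COQ8A, an atypical kinase needed for ubiquinone synthesis, averaged 13.84 ± 0.246 in CTEPH and 14.67 ± 0.177 in Sham (-0.83 ± 0.15, limma, adjusted p = 0.00642). COQ10B, a ubiquinone-binding protein, averaged 11.24 ± 0.0918 in CTEPH and 10.47 ± 0.213 in Sham (0.77 ± 0.13, adjusted p = 0.00527). The groups did not overlap for either gene, and both were called in all 10 fits without a library and in the 8 other alternatives. COQ10A of the same list went the other way from COQ10B and was not called (-0.65 ± 0.31, limma, adjusted p = 0.254).

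Of 8 measured genes that move ATP and phosphate across the mitochondrial membranes or buffer ATP, 1 rose (12.5%, against 2.83% of all genes). The median was 0.12. CKMT2, the mitochondrial creatine kinase of striated muscle, averaged 15.84 ± 0.157 in CTEPH and 15.18 ± 0.296 in Sham (0.66 ± 0.16, limma, adjusted p = 0.0336), and was called in 3 of the 10 fits without a library (highest adjusted p = 0.0816). CKM, the other creatine kinase of this list, went the other way and was not called (-0.62 ± 0.21, limma, adjusted p = 0.118). None of the 23 measured transcriptional regulators was called (median -0.10). PPARGC1A, a coactivator of mitochondrial genes, had a difference of 0.16 ± 0.35 (adjusted p = 0.839) and ESRRA, a nuclear receptor that acts with it, of -0.02 ± 0.17 (adjusted p = 0.958).

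Proliferation genes and cell type markers moved with the groups to different extents. Over all genes, 2.83% were called higher and 1.79% lower. The level of 10 proliferation genes was 0.77 to 2.22 in CTEPH and -1.79 to -1.53 in Sham, and all 10 were called higher (median 3.68). Which cells carried these transcripts was not tested. Of 11 macrophage markers 2 were higher (LYZ and TREM2, median 0.39), with levels of -0.03 to 0.60 in CTEPH and -0.61 to 0.04 in Sham. LYZ and TREM2 had low values in Sham (means of 5.48 and 2.65), and TREM2 overlapped between the groups. CD68 went the other way (-0.50, not called). Of 9 endothelial markers 2 were lower (TEK and FLT1, median -0.36), with levels of -0.54 to -0.004 in CTEPH and -0.09 to 0.59 in Sham. Of 5 adipocyte markers 2 were lower (PLIN4 and CFD, median -0.54), with levels of -0.70 to -0.03 in CTEPH and -0.25 to 0.97 in Sham. FABP4 went the other way (0.44, not called). ADIPOQ and CIDEC had fold changes under 0 at low values (group means from 4.57 to 5.85) and were not called. Of 5 Schwann cell markers 1 was lower (SOX10, median -1.06), with levels of -0.91 to 0.01 in CTEPH and -0.13 to 1.04 in Sham. NCAM1, the marker of that list with the highest values (means of 12.95 in CTEPH and 12.47 in Sham), went the other way (0.48, not called). MYL2 was the cardiomyocyte marker called higher (of 14, median -0.01) and CNN1 the smooth muscle and pericyte marker called higher (of 10, median -0.11). In the list that holds CNN1, 5 fold changes were positive and 5 negative. RGS5 (-0.61) and PDGFRB (-0.54) were among the negative ones and were not called. No marker was called among 9 fibroblast (median 0.18), 7 lymphocyte (0.01), 5 skeletal muscle (0.39), 2 blood (0.54) or 3 atrial markers (1.83, all 3 with an unadjusted p under 0.05). The part of the proliferation genes and markers in the NDUFAF4 and COX7A2 values was not tested.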

How the data were processed

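The authors' deposited values are on a log2 scale, 1 per Ensembl pig gene and library. Tools listed in the submitters' processing notes are limma 3.50.0, edgeR 3.36.0, featureCounts, FastQC 0.11.5, cutadapt 1.15 and bcl2fastq 2.18.12, with the build Sscrofa11.1. Not given in the sources used here are the aligner, the strand setting, the handling of shared reads and any filter applied to low genes. Members with near-identical copies are therefore uncertain. The labels name polyA RNA and a kit for total RNA. Library medians of 9.305 to 9.308 show quantile normalization, under which a shift shared by most genes could not appear. Values up to 9.48 followed from whole counts within 1e-06 (52.8% of values), and relative depth came from 5703 genes with at least 5 counts in every library. Total counts are unknown, and this depth covers counting error only.

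Symbols were given for 12378 genes; 53 members had a RefSeq position. Groups followed the labels, and 5 pigs per group are the replicates. The groups were compared with limma 3.58.1 (R 4.3.3; intensity trend, no covariate, two-sided), which was also tested on simulated data. Named members are the core catalytic subunits, the tissue isoforms, the c ring genes, ATP5IF1, COX7A2L, the 2 highest and 2 lowest fold changes of each complex, and members with an unadjusted p under 0.05 or no overlap; outside the members COX4I1, COX4I2, CYC1, PPARGC1A, ESRRA and called genes of the lists. Of the named members, 1 enters the counts and medians and is not reported here by itself. The members, the pathway and marker lists and the naming rule were chosen with earlier results of these data known. A list's level is its mean deviation from the 10-library means. Alternatives were fits without each library, without the trend, with a robust prior, without the lowest 25% of genes, with library weights, with a pseudocount of 32, with 2 centrings and with exact quantile normalization. A count of promoter motifs was planned and not run, because no promoter sequence was used here.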

Additional observations from a re-analysis of the deposited data

Results flagged for a closer look

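Outliers were sought in 52 items, namely 45 named genes and the mean levels of all members and of each part. Each item was tested in 2 groups of 5 libraries (104 tests). For 6 genes, the gap of 1 library to its nearest neighbour exceeded the 95% critical value of Dixon's test (0.71 of the group's range). Chance alone flags about 1 in 20 such groups. Among the CTEPH pigs, library s9 stood at 12.23 for COX7A2L (next 11.76) and at 14.99 for ATP5PF (next 14.42), above the rest in both. Among the Sham pigs, library s2 stood at 12.40 for COX7A2 (next 12.87), s8 at 14.52 for CYC1 (next 14.94) and s6 at 10.09 for COQ10B (next 10.52), each below the rest. Sham library s7 stood at 13.43 for PPARGC1A, above the next at 12.61.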

How the results depend on the processing

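No paired analysis was possible because each library number occurs once. With library weights, 1269 genes were called in place of 723 (722 higher in place of 443, 547 lower in place of 280), 2 members were called in place of 1, and 9 members in place of 4 had an unadjusted p under 0.05. With libraries centred on cardiomyocyte genes, 470 genes were called (136 lower), 0 members passed the adjusted and 2 the unadjusted threshold, and 31 intervals in place of 59 lay within 1.5-fold. Centring on the 10% of genes with the highest values gave 2 called members, and dropping the lowest 25% of genes gave 273 genes called higher. Leaving out each library in turn gave 401 to 961 genes called, 270 to 570 higher and 117 to 392 lower, with the lowest totals without CTEPH library s4 and the highest without s1 or s9. It gave 0 to 1 members called, 2 to 8 at the unadjusted threshold and 49 to 55 intervals within 1.5-fold. The 8 came without s9, and the 2 without s4, s7 or s10. The medians of the complexes and the isoform differences moved by less than their spread. For 45 named genes, 762 of 809 values kept their direction and side of the threshold, 26 lost a call (NDUFAF4, COX19 and CKMT2) and 3 gained one (COX7A2). The other 18 turned direction, in 8 genes without a call in any fit. When each library was left out, these were UQCRQ (-0.064 to 0.07), COX7A2L (-0.008 to 0.175), COX5B (-0.026 to 0.17), ATP5F1A (-0.017 to 0.154), ATP5MC1 (-0.105 to 0.011), PPARGC1A (-0.122 to 0.413) and ESRRA (-0.188 to 0.06). Library weights gave -0.056 for UQCRQ and -0.034 for PPARGC1A, centring on cardiomyocyte genes gave -0.015 for UQCRQ, and centring on the highest genes gave 0.007 for CYC1 and 0.011 for ESRRA. The causes were not tested.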
